A study of Gallus gallus with 24 samples.

Results

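SCD, FADS1, FADS2, ELOVL2 and HACD2, which act in the desaturation and elongation of fatty acids, were followed in the liver of growing chickens of a fat line (FL) and a lean line (LL). The 5 genes were taken by their symbol in the platform annotation and were measured by 12 of the 19200 spotted cDNA probes, namely 5 for FADS2, 3 for FADS1, 2 for HACD2 and 1 each for SCD and ELOVL2. The lines had been selected in opposite directions on the weight of abdominal fat for 7 generations and were raised under a standard broiler protocol, and no other treatment is named. Liver total RNA of 4 biological replicates per line was compared every other wk from 1 to 11 wk of age, which gives 6 ages with 4 arrays each and 24 arrays in all. Each array carried an FL and an LL sample of the same age, with FL in channel 1 (Alexa 555) on replicates 1 and 3 and in channel 2 (Alexa 647) on replicates 2 and 4. The lines are products of selection that may differ at many loci, so a group is defined by its line and not by an allele.

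Long-chain fatty acids are modified in the endoplasmic reticulum by desaturases, which insert double bonds, and by the elongation cycle, which lengthens the chain. SCD, the stearoyl-CoA desaturase, acts on saturated acyl chains and makes oleate and palmitoleate. FADS2 and FADS1 are the front-end desaturases that act on linoleate, linolenate and their elongated products. ELOVL2 catalyses the condensing step of the elongation of polyunsaturated chains, and HACD2 is a 3-hydroxyacyl-CoA dehydratase of the same cycle. In birds the liver is the main site of fatty acid synthesis. FADS1 and FADS2 are neighbouring genes in the RefSeq annotation of the chicken.

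Each value is a deposited log ratio of the channels, taken as log2. The sources used here do not state the direction of the ratio or whether dye-swapped columns had been turned, so values were read in both ways. In the first reading the columns were fixed channel ratios and were turned by the dye labels, so that a positive turned value means more signal in FL than in LL only under the assumption that channel 2 was divided by channel 1. The part of the ratio that did not turn with the dyes is called the common component. In the first reading it is a dye effect. In the second reading the columns already hold 1 genotype ratio of unstated direction, and the common component is that ratio. Neither reading can be preferred from the sample descriptions, so signs are given without naming the line with the higher level. A gene was called at a limma adjusted p under 0.05, with Benjamini-Hochberg adjustment over 14855 features, namely 6385 genes with a symbol and 8470 unnamed probes.

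Between 18795 and 18970 spots had a value on each array. On 23 arrays the median log2 ratio was within -0.02 to 0.03, and on 7 wk replicate 1 it was 0.33. No other pair of columns was as alike as this array and 11 wk replicate 4 (r = 0.798 across spots). The profile of 1 wk replicate 4 ran against that of the other arrays (r = -0.307 with their mean across spots) and correlated under -0.3 with 4 arrays of its own dye orientation, so its direction was not settled. Of 12 hepatocyte markers 11 were measured, but ratios give no level by which the tissue could be checked. In bulk liver, fewer cells of a type and less RNA per cell cannot be told apart.

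**Figure D1:**
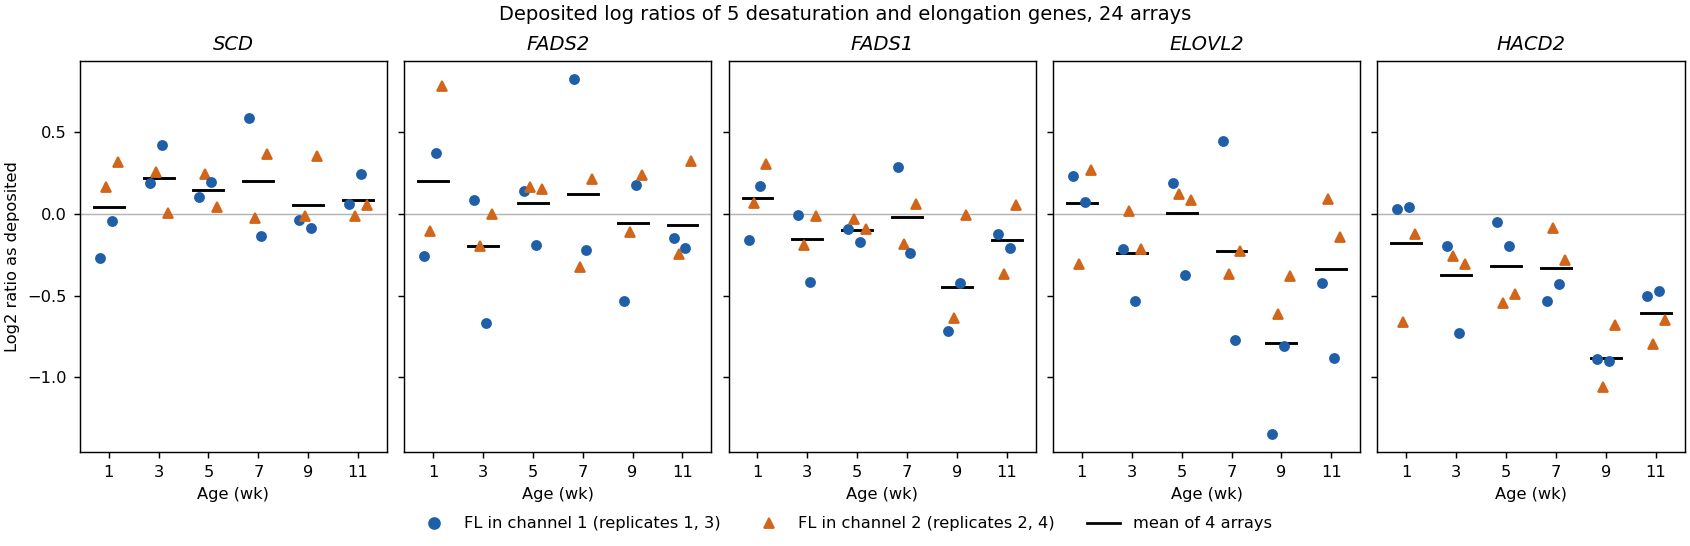
Deposited log2 ratio (vertical axis) of SCD, FADS2, FADS1, ELOVL2 and HACD2 on each of the 24 arrays by age in wk (horizontal axis), with circles for arrays with FL in channel 1, triangles for arrays with FL in channel 2 and a bar for the mean of 4 arrays. HACD2 lies below 0 on 22 of 24 arrays and has its lowest mean at 9 wk, where the values of ELOVL2 are also all negative, whereas SCD is positive on 16 arrays.

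Among the desaturases, SCD gave small and mostly positive ratios on the columns as deposited. At 1 wk its values on replicates 1 to 4 were -0.27, 0.16, -0.04 and 0.31, which is the order of the dye orientation, since both arrays with FL in channel 1 were negative and both others positive. At 3 wk they were 0.19, 0.25, 0.42 and 0.00, and at 5 wk 0.10, 0.24, 0.19 and 0.04. All 8 arrays of these ages were above 0 in both orientations. At 7 wk the values were 0.58, -0.02, -0.14 and 0.37, and the highest of them belonged to replicate 1, the array whose overall median was 0.33. At 9 wk they were -0.04, -0.01, -0.08 and 0.35, and at 11 wk 0.06, -0.02, 0.24 and 0.06. The age means of SCD lay between 0.04 and 0.22, and their differences did not pass the test (moderated F test, limma adjusted p = 0.889).

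FADS2, whose product starts the conversion of linoleate and linolenate, showed no preferred sign. Its values at 1 wk were -0.26, -0.10, 0.37 and 0.78, at 3 wk 0.09, -0.20, -0.67 and -0.0011, and at 5 wk 0.14, 0.16, -0.19 and 0.15. The lowest value of the gene fell at 3 wk and, apart from 7 wk replicate 1, the highest at 1 wk, on the array of unsettled direction. At 7 wk the values were 0.82, -0.32, -0.22 and 0.21, at 9 wk -0.53, -0.11, 0.17 and 0.24, and at 11 wk -0.15, -0.24, -0.21 and 0.32. Of the 24 arrays 13 were negative and 11 positive, and the arrays of every age overlapped those of every other age. The differences between ages had an adjusted p of 0.833 (limma, moderated F test).

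FADS1, which acts after FADS2 and an elongation step, was negative on 18 of 24 arrays. At 1 wk its values were -0.16, 0.06, 0.17 and 0.30, at 3 wk -0.0059, -0.19, -0.42 and -0.01, and at 5 wk -0.09, -0.03, -0.17 and -0.10. Thus 3 of 4 arrays were above 0 at 1 wk and none of 8 at the following ages. At 7 wk they were 0.28, -0.19, -0.24 and 0.06, at 9 wk -0.72, -0.64, -0.42 and -0.0053, and at 11 wk -0.13, -0.37, -0.21 and 0.05. The 3 lowest values of the gene were all measured at 9 wk, below every array of the other ages, while replicate 4 of 9 wk lay near 0. The mean at 9 wk, as deposited, was -0.44 ± 0.10 (SE, n = 4), which was called (limma adjusted p = 0.00382), whereas the 1 wk mean was 0.09 ± 0.10 (adjusted p = 0.833).

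With probes averaged per gene, ELOVL2, which has 1 probe, had the widest spread of the 5 genes as deposited (SD 0.428 over 24 arrays). After turning, HACD2 had the widest spread (SD 0.551), above ELOVL2 (SD 0.487). Some single probes of other genes spread more widely as deposited, such as 41.13.5 of FADS2 (SD 0.762). At 1 wk the values of ELOVL2 as deposited were 0.23, -0.31, 0.07 and 0.26. They were -0.22, 0.02, -0.53 and -0.22 at 3 wk, and 0.19, 0.12, -0.37 and 0.09 at 5 wk. At 7 wk they were 0.44, -0.37, -0.77 and -0.23, and at 11 wk -0.42, 0.09, -0.88 and -0.14. At each of these ages both signs occurred. At 9 wk the values were -1.35, -0.61, -0.81 and -0.38, so that all 4 arrays were negative in both dye orientations. Replicate 1 had the lowest value of the 5 genes on any array, with probes averaged per gene. The 9 wk mean of -0.79 ± 0.17 (SE, n = 4) was called (limma adjusted p = 0.00224), and it was -0.60 without replicate 1. The 1 wk mean was 0.07 ± 0.17 (adjusted p = 0.939). The differences between ages did not pass the test for ELOVL2 (adjusted p = 0.163) or for FADS1 (adjusted p = 0.170), so that neither gene was shown to differ between 9 wk and the other ages.

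HACD2 was negative on 22 of 24 arrays. At 1 wk the values were 0.03, -0.66, 0.04 and -0.12, at 3 wk -0.20, -0.26, -0.73 and -0.31, and at 5 wk -0.05, -0.55, -0.20 and -0.49. The 2 arrays above 0 were both of 1 wk with FL in channel 1. At 7 wk they were -0.53, -0.09, -0.43 and -0.28, at 9 wk -0.89, -1.06, -0.90 and -0.68, and at 11 wk -0.50, -0.79, -0.48 and -0.65. The 9 wk arrays lay below every array of 1, 5 and 7 wk, and all 8 arrays of 9 and 11 wk were at -0.48 or lower. The ratio had the same sign in both orientations, with a mean of -0.40 ± 0.33 (SD, n = 12) where FL was in channel 1 and of -0.49 ± 0.29 (SD, n = 12) where FL was in channel 2. As deposited, HACD2 was called at 3 wk (-0.37 ± 0.11, adjusted p = 0.0408), 7 wk (-0.33 ± 0.11, adjusted p = 0.0287), 9 wk (-0.88 ± 0.11, adjusted p = 1.2e-05) and 11 wk (-0.61 ± 0.11, adjusted p = 7.5e-04), but not at 1 wk (-0.18 ± 0.11, adjusted p = 0.661) or 5 wk (-0.32 ± 0.11, adjusted p = 0.368). The SE is that of the limma fit with 4 arrays per age. The call at 3 wk was lost without 3 wk replicate 2 (adjusted p = 0.0711), replicate 3 (0.367) or replicate 4 (0.125), and that at 7 wk without 7 wk replicate 1 (0.133) or replicate 3 (0.0846), whereas those at 9 and 11 wk held without each of the 24 arrays.

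These calls have to be read against those of all features. As deposited, 0.114% of features were called at 1 wk and 0.0539% at 5 wk, but 6.43% at 3 wk and 10.5% at 11 wk. The shares were largest at 9 wk (16.2%) and 7 wk (23.8%). The 3 of 5 genes called at 9 wk were all negative, and 7.92% of all features were called with that sign at that age. At 7 wk the median of all features was 0.09, against 0.00 with each array centred on its median, so age means of 7 wk stand on a raised base. That base was raised on replicate 1 (array median 0.33), whereas replicates 2 to 4 had array medians of 0.0046, -0.0036 and 0.0184. At the other ages the median of all features lay between 0.00 and 0.01.

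The first reading asked whether the lines differed irrespective of age. For none of the 5 genes did such a difference pass the test. The turned mean over ages was 0.02 ± 0.04 (SE, n = 24) for SCD, 0.06 ± 0.07 for FADS2, 0.04 ± 0.05 for FADS1, 0.11 ± 0.08 for ELOVL2 and -0.05 ± 0.06 for HACD2, each with a limma adjusted p of 1.00. The 95% confidence interval was narrowest for SCD (-0.06 to 0.10) and widest for ELOVL2 (-0.06 to 0.29). The interval was -0.09 to 0.22 for FADS2, -0.07 to 0.16 for FADS1 and -0.17 to 0.08 for HACD2. Of all features 0% were called, and 496 had an unadjusted p under 0.05. With the sign of 1 wk replicate 4 turned, the means of SCD (-0.0040) and FADS2 (-0.0017) changed sign and stayed near 0.

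**Figure D2:**
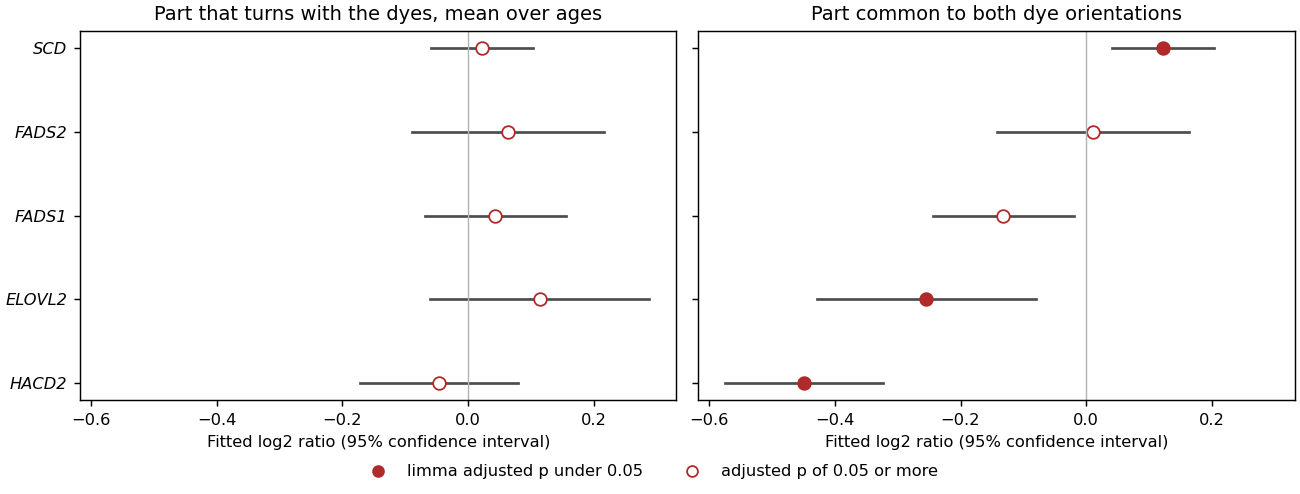
Fitted log2 ratio with its 95% confidence interval (horizontal axis) for SCD, FADS2, FADS1, ELOVL2 and HACD2, with the part that turns with the dyes, averaged over ages, in the left panel and the common component in the right panel; filled points had a limma adjusted p under 0.05. All 5 intervals include 0 on the left, whereas on the right HACD2 (-0.45), ELOVL2 (-0.25) and SCD (0.12) are filled.

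At single ages, none of the 30 turned gene and age values was called either. Among all features 0% were called at 1, 3, 5 and 11 wk, 1.1% at 7 wk and 0.00673% at 9 wk, and unadjusted p-values under 0.05 were found for 69 (1 wk), 123 (3 wk), 174 (5 wk), 2762 (7 wk), 483 (9 wk) and 452 features (11 wk). SCD came nearest at 1 wk, with a turned value of 0.20 ± 0.10 (SE, n = 4, limma adjusted p = 1.00) and all 4 arrays between 0.04 and 0.31. HACD2 was negative on all 4 arrays of 1 wk after turning, from -0.66 to -0.03, with -0.21 ± 0.15. In both cases 1 wk replicate 4 was among the 4. At the later ages the turned values of SCD lay between -0.09 and 0.12 and each age held both signs. The largest turned values of ELOVL2 were 0.29 ± 0.21 at 9 wk and 0.31 ± 0.21 at 11 wk (adjusted p = 1.00 in both), and the single arrays of 9 wk spanned -0.61 to 1.35. FADS2 ranged from -0.18 at 7 wk to 0.14 at 1 wk, and FADS1 from -0.04 at 7 wk to 0.12 at 9 wk. The most extreme turned values of FADS2 at 7 and 1 wk were those of 7 wk replicate 1 (-0.82) and 1 wk replicate 4 (0.78), both in doubt. The turned median of all features at 7 wk was -0.08. A change of the turned ratio between ages was called for 0 of the 5 genes and for 0% of features, both by the interaction (585 features with an unadjusted p under 0.05) and by the linear trend (234 features). The trend over the 10 wk from the first to the last age was 0.33 ± 0.25 for ELOVL2 and between -0.10 and 0.08 for the other 4 genes.

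The common component, in contrast, was called for 3 of the 5 genes. HACD2 had -0.45 ± 0.06 (SE, n = 24, limma adjusted p = 3.1e-05), ELOVL2 -0.25 ± 0.08 (adjusted p = 0.0224) and SCD 0.12 ± 0.04 (adjusted p = 0.0182). FADS1 (-0.13 ± 0.05, adjusted p = 0.0617) and FADS2 (0.01 ± 0.07, adjusted p = 0.927) were not called. A large share of all features had such a component, since 37.6% were called, 13.5% with a negative and 24.2% with a positive value. If the columns had already been turned before deposit, the same means would be genotype ratios over all ages, and with 1 coefficient per age FADS1 was then called as well (-0.13 ± 0.04, adjusted p = 0.0142), as were 41.8% of all features. The median common component of the 5 genes was -0.13 against 0.02 for all features.

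With the sign of 1 wk replicate 4 turned, SCD was no longer called (0.10, adjusted p = 0.101) and FADS1 was (-0.16, adjusted p = 0.0199). The calls of HACD2, ELOVL2 and SCD held without each single array (0.10 to 0.14 for SCD), and FADS1 was called without 1 wk replicate 3, 1 wk replicate 4 or 7 wk replicate 1. The value of FADS2 took either sign between settings, from -0.09 without the 3 arrays in doubt to 0.04 without 3 wk replicate 3.

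As deposited, HACD2 was the 1 gene of the 5 whose ratio differed between ages (moderated F test, limma adjusted p = 0.0422), and 5.69% of all features were called. This call was weak, since it was lost in 15 of the 24 fits that left out 1 array (adjusted p between 0.00782 and 0.117) and with the arrays centred on their medians (adjusted p = 0.0906). Its linear trend amounted to -0.53 ± 0.13 over 10 wk (adjusted p = 0.0165), a trend that 5.53% of all features showed in either direction, and it was lost without 1 wk replicate 3 (adjusted p = 0.0579). The trend was -0.56 ± 0.20 for ELOVL2 (adjusted p = 0.114), -0.30 ± 0.12 for FADS1 (adjusted p = 0.179), -0.12 ± 0.21 for FADS2 (adjusted p = 0.826) and -0.03 ± 0.12 for SCD (adjusted p = 0.936). ELOVL2 was called without 7 wk replicate 1 (-0.59, adjusted p = 0.0413). The arrays themselves differed in spread, with an SD over spots from 0.176 (1 wk replicate 3) to 0.393 (3 wk replicate 3), while the fit holds 1 estimate of the spread for all ages.

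**Figure D3:**
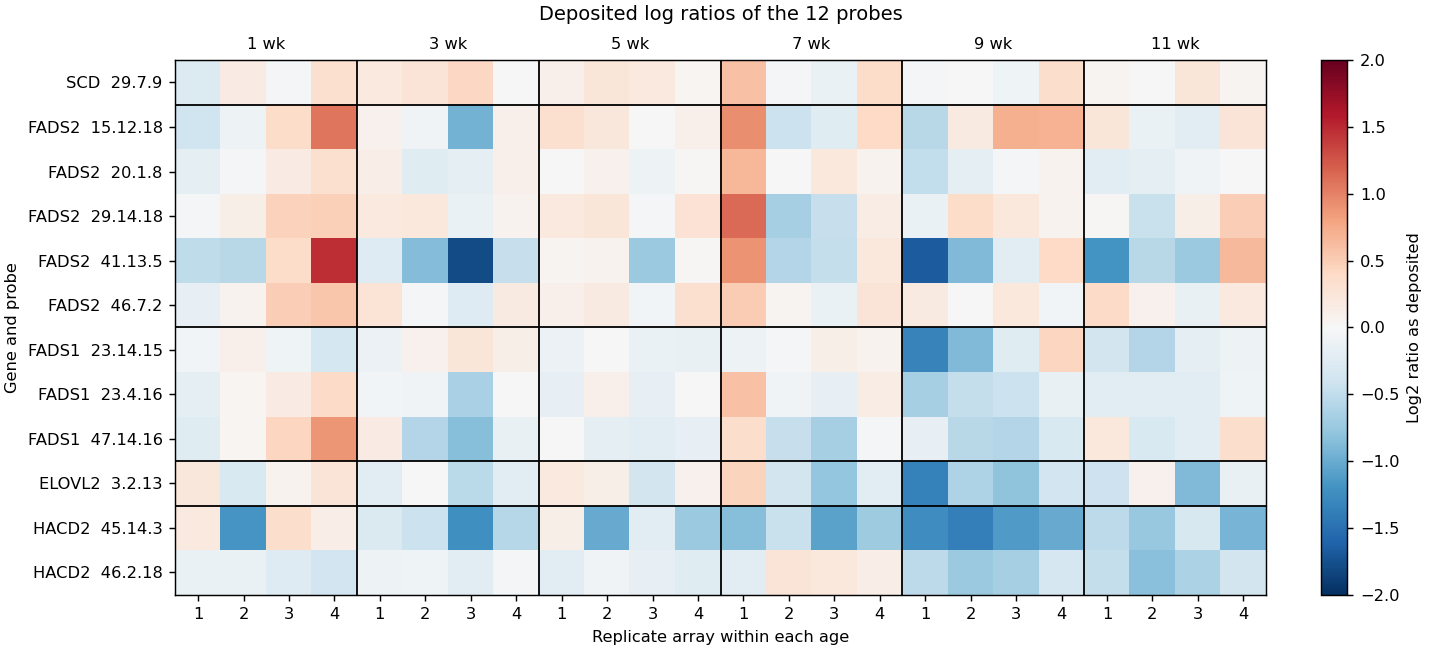
Deposited log2 ratio (colour scale, from -2 in blue to 2 in red) of the 12 probes (rows, with gene and probe name) on the 24 arrays (columns, replicates 1 to 4 within each age). The HACD2 rows are blue at 9 and 11 wk on all 8 arrays, whereas at 7 wk probe 45.14.3 is blue and probe 46.2.18 is pale red on replicates 2 to 4.

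The probes of 1 gene did not always give the same ratio. For HACD2, probe 45.14.3 had a common component of -0.64 ± 0.09 (adjusted p = 6.4e-05 over 18963 probes) and probe 46.2.18 of -0.26 ± 0.06 (adjusted p = 0.00316), and 38.2% of all probes were called. Both probes were thus negative, but across the 24 arrays they were only weakly related (r = 0.18). Both were called as deposited at 9 wk (-1.19 ± 0.20 and -0.57 ± 0.08) and at 11 wk (-0.63 ± 0.20 and -0.58 ± 0.08). At 7 wk they differed in sign, with -0.77 ± 0.20 for probe 45.14.3, which was called (adjusted p = 0.00966), and 0.10 ± 0.08 for probe 46.2.18. Of the 14855 features, 23.8% were called at 7 wk, 16.2% at 9 wk and 10.5% at 11 wk. The differences between ages were called for probe 46.2.18 (adjusted p = 0.00236) and not for probe 45.14.3 (adjusted p = 0.174), and 6.33% of all probes were called in this test.

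For FADS2 the pairwise r of the 5 probes ranged from 0.51 to 0.83 over 24 arrays, and from 0.13 to 0.77 without the 3 arrays in doubt. Probes 20.1.8 and 46.7.2 carry the same clone accession, and their r of 0.51 was the lowest of the 10 pairs over all arrays. Without the 3 arrays their r was 0.24, and the lowest was that of probes 20.1.8 and 29.14.18. Probe 41.13.5 had the widest range of the 12 probes, from -1.79 at 3 wk to 1.48 at 1 wk, and a common component of -0.31 ± 0.15 (adjusted p = 0.120). Probe 46.7.2 was the 1 probe of FADS2 that was called (0.13 ± 0.05, adjusted p = 0.0323), while 20.1.8 had -0.0047 ± 0.05. The mean of the gene near 0 thus averaged probe values of either sign, of which the negative ones were not called.

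For FADS1 all 3 probes had negative common components, from -0.15 to -0.11, and none was called. Probes 23.4.16 and 47.14.16 had r = 0.67, whereas probe 23.14.15 had r = 0.37 with the former and -0.11 with the latter. At 9 wk, as deposited, probes 23.14.15 (-0.50 ± 0.16, adjusted p = 0.0334) and 23.4.16 (-0.43 ± 0.11, adjusted p = 0.00923) were called. Probe 47.14.16 was also negative on all 4 arrays of that age (-0.59 to -0.16), whereas probe 23.14.15 was 0.44 on replicate 4. Of the 14855 features 16.2% were called at 9 wk. After turning, the mean over ages of the 12 probes lay between -0.12 for probe 45.14.3 of HACD2 and 0.22 for probe 41.13.5 of FADS2, and none was called (limma adjusted p = 1.00 for each). The front-end desaturases are a gene family, and probes of spotted cDNA can also bind related transcripts, which was not tested.

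The 5 genes varied more over arrays than most features. The SD of the deposited ratio over 24 arrays was 0.428 for ELOVL2, 0.355 for FADS2, 0.309 for HACD2, 0.252 for FADS1 and 0.199 for SCD, against a median of 0.167 over all features. ELOVL2 exceeded 95.2% of features, FADS2 91.7%, HACD2 87.6%, FADS1 78.2% and SCD 63.3%. ELOVL2 and SCD have 1 probe each, whereas the other genes are means of probes. The r values between genes, given next, and between probes, given above, are those of the columns as deposited. They can change if columns are turned, and r of turned values was not computed. Across the 24 arrays, which share ages, dye orientations and the 3 arrays in doubt, FADS1 was related to FADS2 (r = 0.77), to ELOVL2 (r = 0.71) and to HACD2 (r = 0.58). FADS2 and ELOVL2 had r = 0.59, and ELOVL2 and HACD2 had r = 0.52. Without the 3 arrays in doubt these values became 0.64, 0.62, 0.67, 0.44 and 0.57, in the same order. SCD was the least related to the others, with r from -0.05 with HACD2 to 0.43 with FADS1, and from -0.10 to 0.25 without these arrays.

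Genes with the most similar profile were found by the cosine of the deposited values over 24 arrays, which does not change if columns are turned. The cosine is not centred, so it counts a mean ratio away from 0 as well as variation over arrays. SCD and HACD2, for example, had a cosine of -0.47 and an r of -0.05. HACD2 was negative on 22 of 24 arrays, and the part of such means in the cosines was not tested. The cosines were also not repeated without the 3 arrays in doubt. On 1 of these, 7 wk replicate 1, SCD (0.58) and FADS2 (0.82) had their highest values. The nearest of 6384 genes were ANPEP, the membrane alanyl aminopeptidase (0.80), and ORMDL2 (0.79) for SCD, and ACTG1, a cytoplasmic actin (0.81), and DNAJC14 (0.78) for FADS2. For FADS1 they were HMGN5 (0.87) and DPH5 (0.86), and for ELOVL2 HIBCH, an enzyme of valine catabolism (0.85), and RNF128 (0.84). HACD2 had the closest neighbours, SULT6B1L (0.94) and PDS5A, a regulator of cohesin (0.92). None of these belonged to the 5 genes. ELOVL2 ranked 32nd among the neighbours of FADS1 with a cosine of 0.78, and FADS1 ranked 75th among those of FADS2 with 0.67, whereas SCD ranked 4856th among those of HACD2 (-0.47).

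Of 25 further genes of desaturation and elongation 13 were measured. In the first reading none of them was called in the mean over ages, where 0% of all features were called. Their values ran from -0.07 ± 0.05 for HACD1 to 0.11 ± 0.09 for HSD17B12. Their median was -0.0020 against -0.01 for all features. In the common component 4 were called with a negative and 3 with a positive value, against 13.5% and 24.2% of all features. In the elongation cycle, HSD17B12, the 3-ketoacyl-CoA reductase that acts just before the dehydratases, had -0.39 ± 0.09 (adjusted p = 0.00379) and thus the sign of HACD2. The dehydratase HACD3 had -0.11 ± 0.03 (adjusted p = 0.00934), whereas HACD1, a dehydratase known from muscle, had 0.29 ± 0.05 (adjusted p = 1.3e-04). The elongases ELOVL1, which acts on saturated very long chains (0.09 ± 0.03, adjusted p = 0.0458), and ELOVL5, which acts on polyunsaturated chains (0.07 ± 0.04, not called), had the sign opposite to that of ELOVL2.

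**Figure D4:**
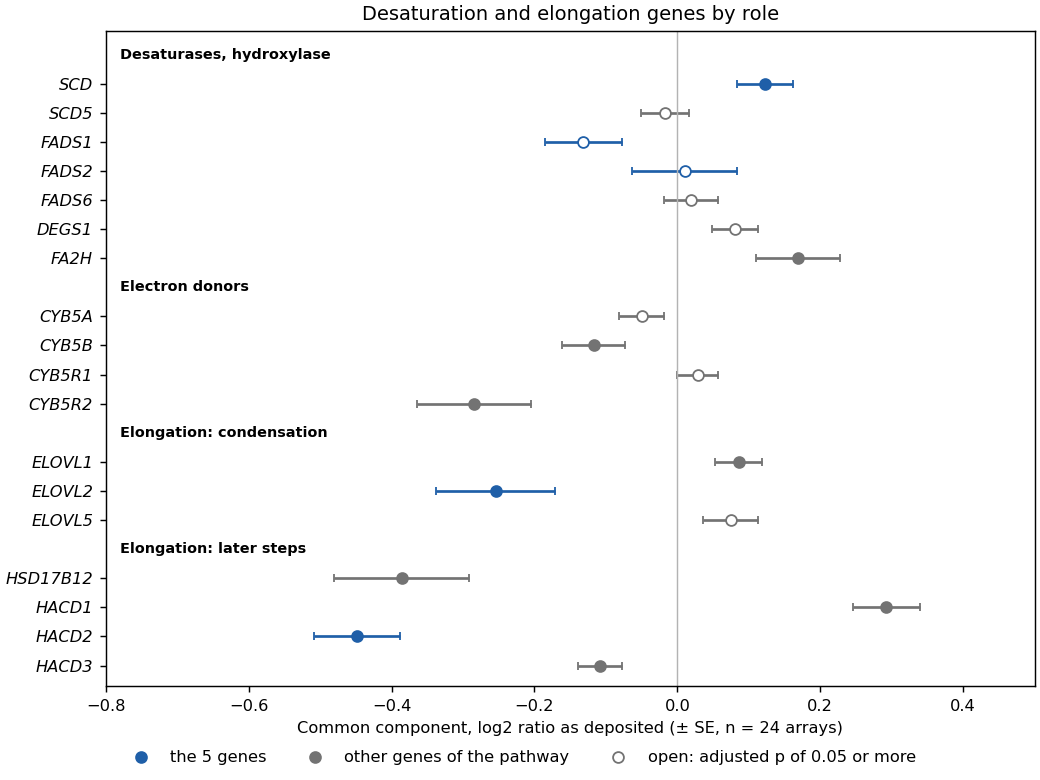
Common component in log2 units with its SE over 24 arrays (horizontal axis) for the 5 genes (blue) and 13 other genes of desaturation and elongation (grey), ordered by role; open points had a limma adjusted p of 0.05 or more. The 3 lowest values belong to HACD2 (-0.45), HSD17B12 (-0.39) and CYB5R2 (-0.28), and the highest to HACD1 (0.29).

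Desaturases receive electrons from cytochrome b5 and its reductases. Of these, CYB5R2 (-0.28 ± 0.08, adjusted p = 0.00944) and CYB5B, the mitochondrial cytochrome b5 (-0.12 ± 0.04, adjusted p = 0.0443), were called, while CYB5A, the microsomal form (-0.05 ± 0.03), and CYB5R1 (0.03 ± 0.03) were not. Among the related desaturases and hydroxylases, FA2H, the fatty acid 2-hydroxylase, was called (0.17 ± 0.06, adjusted p = 0.0297). DEGS1, the dihydroceramide desaturase (0.08 ± 0.03), FADS6 (0.02 ± 0.04) and SCD5 (-0.02 ± 0.03) were not called. As deposited, the differences between ages were called for CYB5B (limma adjusted p = 0.00298) and SCD5 (adjusted p = 0.0483), and for 5.69% of all features. At single ages, as deposited, 0 of the 13 genes were called at 1 and 5 wk. At 3 wk HACD1 was called (0.37 ± 0.10, against 6.43% of all features). At 7 wk, when 23.8% of features were called, FA2H (0.51 ± 0.14), HACD1 (0.35 ± 0.10) and SCD5 (0.23 ± 0.06) passed the test. At 9 wk, with 16.2% of features called, they were CYB5B (-0.41 ± 0.06), HACD1 (0.34 ± 0.10) and DEGS1 (0.21 ± 0.07). At 11 wk, with 10.5% called, 4 genes were negative, namely HSD17B12 (-0.85 ± 0.21), CYB5R2 (-0.56 ± 0.17), CYB5B (-0.28 ± 0.06) and HACD3 (-0.21 ± 0.07), and HACD1 was positive (0.48 ± 0.10). The trend of CYB5B over 10 wk was -0.43 ± 0.07 (limma adjusted p = 7.8e-04), and 5.53% of all features were called for a trend.

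In the lists of lipid genes around these enzymes no gene was called in the mean over ages, where 0% of all features were called. Their counts in the common component, given next, stand beside 13.5% of all features called negative and 24.2% called positive. Of 9 measured genes of de novo synthesis 2 were called negative, namely THRSP (-0.33 ± 0.07) and ACACA, the acetyl-CoA carboxylase (-0.31 ± 0.10), and 1 positive, the acetyl-CoA synthetase ACSS2 (0.15 ± 0.04). The list had a median of -0.02. Of 15 regulators of lipid synthesis 3 were negative and 5 positive (median 0.02), and the largest values were those of INSIG2 (-0.20 ± 0.06), SREBF2 (0.17 ± 0.05), PPARGC1A (0.15 ± 0.05) and INSIG1 (0.13 ± 0.04). The INSIG proteins retain the sterol regulatory element binding proteins in the endoplasmic reticulum, and here the 2 INSIG genes had opposite signs. Of 11 acyl-CoA synthetases and acyltransferases, ACSL1 was negative (-0.49 ± 0.08), and ACSL3 (0.14 ± 0.03) and LPCAT1 (0.08 ± 0.02) were positive (median 0.02). Of 7 genes of peroxisomal beta-oxidation, which completes the synthesis of docosahexaenoate, PEX5 (-0.21 ± 0.07), SCP2 (-0.17 ± 0.05) and EHHADH (-0.16 ± 0.05) were negative and ABCD3 was positive (0.21 ± 0.05), with a median of -0.02.

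Markers of cell types moved with the same component. Of 11 hepatocyte markers 6 were called, all negative, with a median of -0.24 against 0.02 for all features, of which 13.5% were called with that sign. They were APOH (-0.73 ± 0.11), APOB (-0.66 ± 0.16), TTR (-0.59 ± 0.08), AMBP (-0.56 ± 0.13), APOA1 (-0.23 ± 0.07) and TF (-0.20 ± 0.06). FGG alone had a positive value (0.10 ± 0.05) and was not called. The mean of the list per array ranged from -0.40 to 0.54 at 1 wk, from -0.97 to -0.31 at 3 wk, from -0.39 to -0.06 at 5 wk, from -0.62 to -0.14 at 7 wk, from -0.68 to -0.27 at 9 wk and from -0.66 to -0.36 at 11 wk. The mean of the list was thus negative on all arrays from 3 wk on, as was HACD2. The part of these markers in the ratios of HACD2 and ELOVL2 was not tested.

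Among the other marker lists, those of fibroblasts and macrophages held called genes of both signs, and the called genes of the rest were all positive. Of all features 13.5% were called negative and 24.2% positive. Of 7 fibroblast and stellate cell markers SPARC (0.46 ± 0.07), FBN1 (0.34 ± 0.04) and COL1A1 (0.20 ± 0.06) were positive and DCN (-0.14 ± 0.06) was negative. The called endothelial markers were VWF (0.13 ± 0.04) and ENG (0.09 ± 0.03) of 5, the adipocyte markers FABP4 (0.18 ± 0.04) and PLIN1 (0.11 ± 0.03) of 3, and the bile duct markers EPCAM (0.19 ± 0.04) and KRT7 (0.11 ± 0.03) of 2, all positive. Of 8 macrophage markers C1QC (-0.29 ± 0.08) and CTSS (-0.11 ± 0.03) were negative and CSF1R (0.11 ± 0.03) and C1QA (0.07 ± 0.02) positive. SLC4A1, the anion exchanger of red cells (0.17 ± 0.04), was called among 3 erythrocyte markers, and CD3E, the 1 lymphocyte marker measured, was not (0.04 ± 0.04). No marker of any cell type was called in the turned mean over ages, where 0% of all features were called.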

How the data were processed

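Liver RNA of FL and LL chickens was compared on 24 two-colour cDNA arrays, with 4 arrays at each of 6 ages. The log2 ratios were deposited by the authors as normalized values of 19200 probes. Background correction, normalization, genome build, log base and direction are not given in the sources used here, and log2 was assumed. Symbols came from the platform annotation, which gives 10601 probes a symbol. Probes of a symbol were averaged, and unnamed probes were kept as single features. Features with under 3 measured arrays at any age were left out.

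Features were tested in limma (version 3.58.1, R version 4.3.3), two-sided, and p-values were adjusted over 14855 features by Benjamini-Hochberg. The first fit had 6 age coefficients, signed by dye orientation, and 1 common term. The second fit had 1 coefficient per age for the columns as deposited. All 24 arrays shared 1 estimate of the spread, whose size the number of arrays limits. The p-values measure the spread between these arrays. The model was tested on simulated data with independent noise of equal spread on all arrays. That setting does not cover arrays that differ in spread, are alike or have an unsettled direction, as some did here. Replicate numbers did not pair arrays across ages (the correlations of same-numbered deviations lay between -0.50 and 0.51, median -0.04).

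The 5 genes, the gene lists and the cell type markers were chosen with earlier results of these data known. Named were the 5 genes, all measured genes of their pathway, up to 4 called members of each other list by size, or the member with the smallest p where none was called, and the 2 genes with the nearest profile. APOA1 and TF were named beyond this rule, to account for the 6 hepatocyte markers, and FGG for its positive value. Alternatives were the direction of the columns, 1 wk replicate 4 turned, arrays left out, centring, scaling, weights, a common term per age, a replicate block, the filter and single probes. The linear trend of the columns as deposited and the fit without 3 arrays together were added after seeing the data.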

Additional observations from a re-analysis of the deposited data

Results flagged for a closer look

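Within the 30 groups of 4 arrays formed by gene and age, 2 arrays lay far from the others of their group on the columns as deposited. That is near what chance alone marks, about 1 in 20 groups. The turned values were not examined in this way. SCD at 9 wk was 0.35 on replicate 4, and the other 3 arrays lay between -0.08 and -0.01, so that the gap was 0.84 of the whole range. FADS2 at 5 wk was -0.19 on replicate 3, against 0.14 to 0.16 on the other arrays, and the gap was 0.93 of the range.

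The ratio of HACD2 as deposited differed between ages (moderated F test, limma adjusted p = 0.0422), with means from -0.18 at 1 wk to -0.88 at 9 wk. Of all features 5.69% were called in this test. The call of HACD2 was lost in 15 of the 24 fits that left out 1 array. It was also lost with the arrays centred on their medians (adjusted p = 0.0906).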

How the results depend on the processing

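In the first reading, 0 of the 5 genes were called in the mean over ages, at single ages, in the interaction and in the trend under each alternative except the second reading of the columns. With the columns taken as already turned, 4 genes were called in the mean over ages, 6 gene and age values at single ages, 1 gene in the interaction and 1 in the trend. Of all features, 41.8% were then called in the mean, 5.69% in the interaction and 5.53% in the trend, with 8478 calls at single ages. In that reading the means of FADS1 (-0.13) and ELOVL2 (-0.25) had the opposite sign. With 1 wk replicate 4 turned, the means of SCD (-0.0040) and FADS2 (-0.0017) and the common component of FADS2 (-0.055) changed sign. That of FADS2 was also negative without 7 wk replicate 1 and 11 wk replicate 4 (-0.042), without all 3 arrays (-0.088), with centring (-0.0084) and with array weights (-0.015), and lay between -0.027 and 0.044 when 1 array was left out. The cause was not tested. As deposited, the number of genes that differed between ages went from 1 to 0 with centring, with scaling and without the 3 arrays. With array weights it was 3 (FADS1, ELOVL2 and HACD2), where the calls over all features rose from 845 to 2342. The number of the 5 genes with a trend went from 1 to 0 with scaling and without the 3 arrays. It was 2 without 7 wk replicate 1 and 11 wk replicate 4, and 3 with array weights. Over all features the 822 calls of a trend rose, even with scaling, where the number among the 5 genes fell. They became 1268 with scaling, 1323 without 7 wk replicate 1 and 11 wk replicate 4, and 1914 with array weights. Without the 3 arrays the trend of SCD was 0.024, and with 1 array left out it lay between -0.10 and 0.036 and that of FADS2 between -0.23 and 0.014, both positive only without 1 wk replicate 4. Leaving out 1 array at a time gave 0 to 2 genes for the differences between ages, 0 to 2 for the trend, 3 to 4 for the common component and 5 to 6 gene and age values as deposited, and 0 for all comparisons of the first reading. Over all features these fits called 427 to 1431 for the differences between ages, 497 to 1353 for the trend and 4997 to 6056 for the common component. At single ages as deposited they gave 7155 to 10442 calls.

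A replicate block (correlation of -0.06 for the turned and -0.03 for the deposited values) called FADS1 in the common component (-0.13, adjusted p = 0.0248), as did centring, scaling and array weights, and changed no other call of the 5 genes. The call of HACD2 at 7 wk was also lost with scaling and with array weights. FADS1 was called for differences between ages without 9 wk replicate 4 (adjusted p = 0.0397). Over all features, the calls at single ages, 164 in the first reading, went to 109 with 1 wk replicate 4 turned, 8 with centring, 1 with scaling, 0 with array weights, 294 with a common term per age, 8478 with the columns as already turned, and from 10 without 7 wk replicate 1 to 1502 without 7 wk replicate 3. The 845 features that differed between ages became 2342 with array weights and between 427 and 1431 with 1 array left out. The ratios do not hold the brightness of a probe, so its distance from background is unknown, and the number of arrays limits what could be detected.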
